A study of Mus musculus with 9 samples.

Results

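The RNA of 10 genes of the NF-kB system was followed across 3 cultures of mouse macrophages: the 5 NF-kB/Rel subunit genes Nfkb1, Nfkb2, Rel, Rela and Relb, and 5 inhibitor genes that NF-kB itself induces, Nfkbia, Nfkbie, Nfkbiz, Tnfaip3 and Bcl3. They were taken by gene name from a table of 46078 genes, and each name matched 1 row. All cultures came from C57BL/6J mice, an inbred laboratory strain, carried no stated genetic change, and had been kept for at least 8 weeks. FLM_G were fetal liver macrophages grown with 10% fetal bovine serum and recombinant GM-CSF, the granulocyte-macrophage growth factor, at 30 ng/ml. FLM_M were fetal liver macrophages grown with 30% supernatant of L cells, which supplies the macrophage growth factor M-CSF, and 20% serum. The fetal livers were of gestational days 15 to 19. BMM were macrophages grown from bone marrow, whose medium and growth factor are not described in the labels. Each culture gave 3 libraries, from wells plated together at 250000 cells the day before harvest. Nothing says that these were separate cultures or animals. Each p-value rests on the spread among libraries within a culture, pooled over the 3 cultures and moderated by that of other genes. This spread is possibly only technical. GM-CSF, M-CSF and serum differ together between FLM_G and FLM_M, and tissue and age differ between both fetal cultures and BMM, so their parts cannot be told apart.

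NF-kB is a family of dimeric transcription factors that drives inflammatory, survival and antimicrobial genes in macrophages. In the canonical pathway, inhibitor (IkB) proteins hold RelA and c-Rel dimers in the cytoplasm until the IKK kinase complex marks the inhibitors for destruction. In the non-canonical pathway, the p100 precursor made by Nfkb2 is cut to p52, which acts with RelB. Several inhibitors are themselves NF-kB target genes and so close negative feedback loops.

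Levels are the deposited FPKM, a read density per transcript length and library size, scaled between libraries by TMM factors. A mean ± SD is over the 3 libraries of a culture. Fold changes are differences of log2(FPKM + 1), which understate changes of low genes, with their standard error (SE) and a limma p adjusted over all 11952 genes tested. A call is an adjusted p under 0.05. All 10 genes passed the filter of 1 FPKM in at least 3 libraries. The spacing of low FPKM values gave an estimate of 28660000 to 35850000 reads per library. At the median length of each gene's annotated transcripts, the 10 genes stood for about 133 (Bcl3) to 1923 (Nfkbia) reads per library on average. These read numbers and their order depend on that choice of length, since a longer transcript would give more reads. The deposited counts of the same genes were far smaller, 1 to 49 per library, in libraries summing to 782400 to 1170813 counts, and were not used as the main measure. All 8 macrophage marker genes listed, such as Csf1r, Cd68 and Lyz2, were detected in every library, at no less than 9.11 ± 0.39 FPKM in a culture (Mertk in BMM), while the B and T cell list summed to at most 0.0088 FPKM in any library and 4 of the 5 hepatocyte genes (Alb, Apoa1, Ttr and Serpina1a) were listed at 0 in all 9. The other, Afp, a gene of fetal liver, stood at 0.79 to 1.13 FPKM in FLM_G, 1.94 to 2.57 in FLM_M and 1.59 to 1.92 in BMM, and was called lower in FLM_G in both of its comparisons. No erythroid, mast cell or dendritic cell gene of 6 listed for each reached 1 FPKM, and of 6 stromal and endothelial genes Cdh5 (4.28 ± 0.08 in FLM_G) and Kdr (6.63 ± 0.91 in FLM_M) did. S100a8, a gene of neutrophils and also of some macrophages, stood at 49.7 to 56.6 FPKM in FLM_G, 9.51 to 12.3 in FLM_M and 1.77 to 2.06 in BMM, with the neutrophil genes Elane and Ly6g listed at 0 throughout; of the 7 genes of that list only S100a8 and S100a9 (1.21 in 1 BMM library) reached 1. The cultures also differed in sex genes, with Xist at 41.3 to 54.7 FPKM in FLM_G, 67.2 to 74.3 in FLM_M and at most 0.0044 in BMM. Ddx3y stood at 0 to 0.016 in FLM_G, at 0 in FLM_M and at 8.47 to 10.4 in BMM. Sex thus differs between both fetal cultures and BMM along with tissue, and they cannot be told apart. The part of Afp, S100a8, Cdh5 and Kdr in the results below was not tested.

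The sequences before the starts of these genes are shown because the inhibitors are known as NF-kB targets. RefSeq promoter windows (GRCm38.p6, 250 bases before to 50 after an annotated start) were found for 7 of the 10 genes, in 10 windows. They were searched on both strands for GGG, then A or G, any 2 bases, 2 bases that are each C or T, and CC, so that 1 palindromic stretch can match on both strands and matches can overlap. Of the 7 genes 6 held at least 1 match, against 9.55% of the 27025 genes in the RefSeq table, and Rela held none. The strict form, GGGA, any 2 bases and TTCC, was found in 2 of them, Nfkb2 and Nfkbia, against 1.63% of all genes. A match is a description of these letters and not a measured binding site. The 130 bases before the start of 5 of them, and 30 bases around a match after the start of Bcl3 and of a second annotated start of Nfkb2, read as follows, 5′ to 3′ on the strand of the gene with matches in capitals. Nfkb2 covers chr19:46304607-46304736 and chr19:46305695-46305724 (plus strand), Rel chr11:23770970-23771099 (minus), Nfkbia chr12:55492648-55492777 (minus), Nfkbie chr17:45555570-45555699 (plus), Tnfaip3 chr10:19015411-19015540 (minus) and Bcl3 chr7:19822734-19822763 (minus).
Nfkb2: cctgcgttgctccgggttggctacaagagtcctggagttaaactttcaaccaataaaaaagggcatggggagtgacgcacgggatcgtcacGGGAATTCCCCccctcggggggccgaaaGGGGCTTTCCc
Nfkb2, second start: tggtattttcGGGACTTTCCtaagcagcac
Rel: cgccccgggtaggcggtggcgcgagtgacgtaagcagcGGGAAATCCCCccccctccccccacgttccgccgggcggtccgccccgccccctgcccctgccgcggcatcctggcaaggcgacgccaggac
Nfkbia: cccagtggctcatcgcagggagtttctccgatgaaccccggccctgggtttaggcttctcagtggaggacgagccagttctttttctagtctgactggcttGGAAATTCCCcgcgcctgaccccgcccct
Nfkbie: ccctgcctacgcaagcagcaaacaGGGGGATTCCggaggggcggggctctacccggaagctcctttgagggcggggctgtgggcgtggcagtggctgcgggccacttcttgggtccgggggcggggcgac
Tnfaip3: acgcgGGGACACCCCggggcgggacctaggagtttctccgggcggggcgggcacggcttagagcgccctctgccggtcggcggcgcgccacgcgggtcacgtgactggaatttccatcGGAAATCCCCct
Bcl3: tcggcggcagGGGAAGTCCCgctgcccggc
Nfkbia has its match 20 to 29 bases before the start, and Tnfaip3 has 1 of its 2 matches 3 to 12 bases before it. Nfkb2 has 2 stretches in the first window, the nearer of them 2 to 11 bases before the start. The genes with a match did not share a pattern of scaled levels. As given below, Nfkb2, Nfkbia and Nfkbie were higher in both fetal cultures than in BMM, whereas Rel was called in no comparison and Bcl3 was lower in FLM_G.

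On the scaled levels the non-canonical pair Relb and Nfkb2 changed most among the subunits in both comparisons with BMM. Rela and Rel, the subunits that carry the activation domains of canonical dimers, were then called in no comparison. Without scaling this order did not hold in FLM_G against BMM. There Nfkb2 gave 0.03 (limma adjusted p = 0.634), and 1 subunit was called higher and 3 lower. Relb (ENSMUSG00000002983, GRCm38 chromosome 7, 19606217 to 19629438) stood at 5.08, 5.42 and 5.66 FPKM in FLM_G, at 8.25, 8.03 and 8.20 in FLM_M and at 2.42, 2.71 and 2.89 in BMM. The 3 cultures did not overlap, and FLM_M was the highest. Relb was 3.05-fold higher in FLM_M than in BMM, with a limma adjusted p of 4.42e-07 for its log2 change of 1.32 (SE 0.06), and 2.02-fold higher in FLM_G than in BMM (0.80, SE 0.06, adjusted p = 5.30e-06). Between the fetal cultures it was lower in FLM_G by 0.52 on the log2 scale (SE 0.06, limma adjusted p = 8.37e-05).

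Nfkb2 (ENSMUSG00000025225, chromosome 19, 46304320 to 46312385), the gene of p100 and p52, kept the same order. Its levels were 15.4, 15.3 and 15.0 FPKM in FLM_G, 20.2, 19.3 and 19.7 in FLM_M and 10.9, 11.7 and 10.8 in BMM. Every FLM_M library lay above every FLM_G library, and these above every BMM library. The log2 change was 0.77 (SE 0.05) in FLM_M against BMM and 0.42 (SE 0.05) in FLM_G against BMM, with limma adjusted p of 2.01e-06 and 4.95e-05. FLM_G was lower than FLM_M by 0.35 (SE 0.05, adjusted p = 0.000143). Without scaling between libraries, Nfkb2 in FLM_G against BMM was no longer called (0.03, adjusted p = 0.634). On the sparse deposited counts it was called in neither comparison and had the other sign, at -0.064 with edgeR (adjusted p = 0.900) and -0.12 with DESeq2 (0.862) in FLM_M against BMM, and at -0.12 (0.799) and -0.11 (0.867) in FLM_G against BMM. The opposite strand of Nfkb2 holds 2 annotated genes, Psd, at most 0.048 FPKM, and AC114539.1, which was not analysed here.

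Nfkb1 (ENSMUSG00000028163, chromosome 3, 135584655 to 135691547), which codes for p105 and p50, behaved otherwise. It stood at 6.38, 6.22 and 6.57 FPKM in FLM_G, below all other libraries, at 9.16, 8.51 and 7.99 in FLM_M and at 9.53, 8.26 and 7.94 in BMM. FLM_M and BMM overlapped, with a log2 difference of -0.0019 (SE 0.07, 95% interval -0.17 to 0.17, limma adjusted p = 0.991). FLM_G was lower than BMM, with a change of -0.37 (SE 0.07, adjusted p = 0.00215), and lower than FLM_M, with -0.37 (SE 0.07, adjusted p = 0.00202).

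Rela (ENSMUSG00000024927, chromosome 19, 5637483 to 5648130), the gene of p65, was the most abundant subunit RNA in all 9 libraries. It stood at 22.2, 24.3 and 26.7 FPKM in FLM_G, at 31.0, 26.1 and 27.0 in FLM_M and at 27.0, 28.4 and 28.1 in BMM. Its log2 change was 0.01 (SE 0.08, 95% interval -0.18 to 0.19, limma adjusted p = 0.965) in FLM_M against BMM. In FLM_G against BMM the change of -0.19 (SE 0.08) had an adjusted p of 0.0693, and in FLM_G against FLM_M the change of -0.19 (SE 0.08) had an adjusted p of 0.0604. Both reached the threshold when FLM_G replicate 3 was left out (adjusted p = 0.0354 and 0.0308). Against BMM it also did without FLM_M replicate 1 (0.0355), and against FLM_M without FLM_M replicate 2 (0.0330).

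Rel (ENSMUSG00000020275, chromosome 11, 23736847 to 23770970), the gene of c-Rel, was called in none of the 3 comparisons. Its levels were 4.78, 4.36 and 4.49 FPKM in FLM_G, 5.04, 4.30 and 4.65 in FLM_M and 5.12, 5.06 and 4.97 in BMM. FLM_G lay below BMM in every library, but the log2 change of -0.13 (SE 0.06, limma adjusted p = 0.103) was not called. The 95% intervals were -0.27 to 0.02 in FLM_G against BMM, -0.24 to 0.05 in FLM_M against BMM and -0.17 to 0.11 in FLM_G against FLM_M. Without scaling, both Rel and Rela were called lower in FLM_G in each of its comparisons, in which the median gene was then also lower (values further on).

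**Figure D1:**
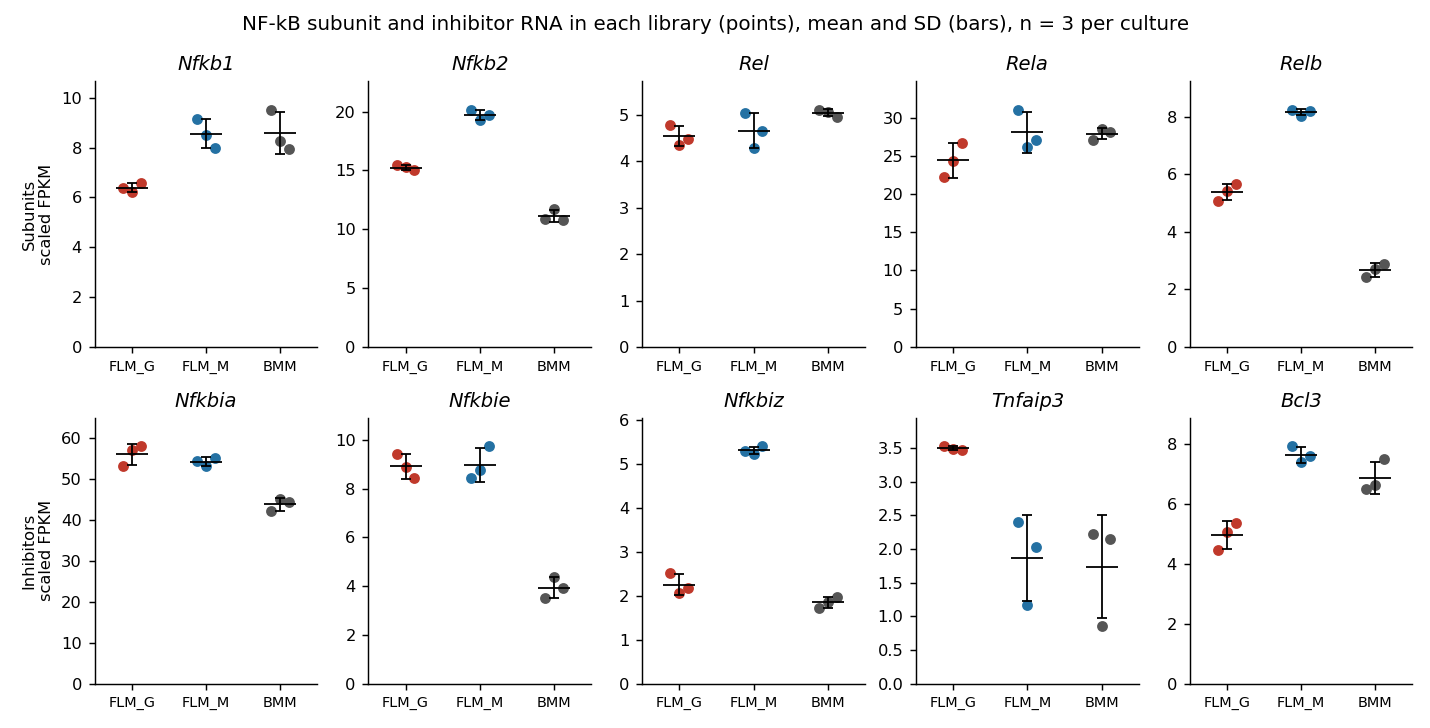
Scaled FPKM (vertical axes, starting at 0) of the 5 subunit genes (upper row) and 5 inhibitor genes (lower row) in FLM_G, FLM_M and BMM; points are libraries and bars the mean and SD of 3. Relb and Nfkb2 are highest in FLM_M and lowest in BMM, Nfkbie is about level in both fetal cultures, and Tnfaip3 has 1 low library in FLM_M (1.16) and 1 in BMM (0.85).

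The make-up of the subunit RNA was also computed within each library, where the scaling cancels. FPKM is per length, so levels of different genes can be set side by side on this scale. Relb made up 9.42%, 9.76% and 9.68% of the summed subunit FPKM in FLM_G, 11.2%, 12.1% and 12.1% in FLM_M and 4.40%, 4.82% and 5.28% in BMM. Nfkb2 made up 27.3 ± 1.5% in FLM_G, 28.6 ± 1.0% in FLM_M and 20.1 ± 0.6% in BMM (SD, n = 3 each). In both fetal cultures the non-canonical pair thus held a larger share of the pool than in any BMM library. The shares of the other subunits were smaller in the fetal cultures, with no overlap with BMM: Rela at 43.5 ± 2.3% in FLM_G, 40.5 ± 1.4% in FLM_M and 50.4 ± 1.1% in BMM. Nfkb1 held 11.4 ± 0.4% in FLM_G, 12.4 ± 0.5% in FLM_M and 15.5 ± 1.6% in BMM. Rel held 8.14 ± 0.65% in FLM_G, 6.74 ± 0.21% in FLM_M and 9.14 ± 0.15% in BMM. The summed level of the 5 subunits was 56.0 ± 2.3 FPKM in FLM_G, 69.1 ± 4.0 in FLM_M and 55.3 ± 0.8 in BMM. A larger share of some subunits lowers the shares of the others by arithmetic. In FLM_M the levels of Rela (28.1 FPKM) and Nfkb1 (8.55) were near those in BMM (27.9 and 8.58), although their shares were smaller. These shares are a description and were not tested. In bulk RNA, fewer cells that express a gene and less of its RNA per cell cannot be told apart.

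**Figure D2:**
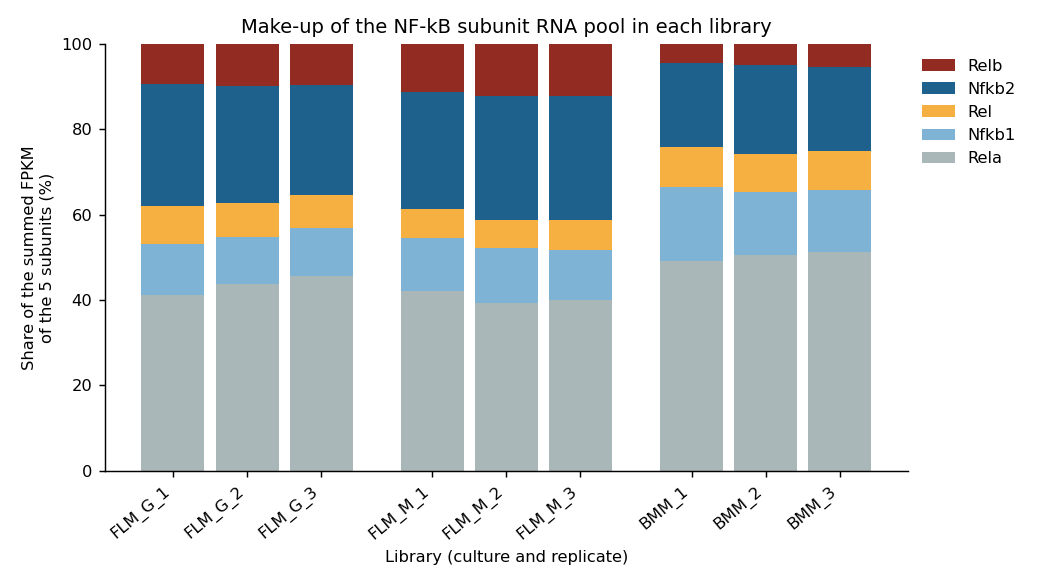
Share of each subunit in the summed FPKM of the 5 subunits (vertical axis, percent) in each of the 9 libraries (horizontal axis), stacked. Relb and Nfkb2, at the top of each bar, take a larger share in FLM_G and FLM_M than in BMM, where Rela takes 49.2% to 51.4%.

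Among the inhibitors, Nfkbia and Nfkbie were higher in both fetal cultures, Nfkbiz was highest in FLM_M, Tnfaip3 was higher in FLM_G and Bcl3 was lower in FLM_G. Nfkbia (ENSMUSG00000021025, chromosome 12, 55489410 to 55492647), the gene of IkB-alpha and the most abundant of the 10, stood at 53.2, 57.1 and 58.1 FPKM in FLM_G, at 54.4, 53.1 and 55.3 in FLM_M and at 42.1, 45.0 and 44.4 in BMM. Both fetal cultures lay above BMM without overlap and overlapped each other. The log2 change was 0.30 (SE 0.05, limma adjusted p = 0.00107) in FLM_M against BMM and 0.35 (SE 0.05, adjusted p = 0.000226) in FLM_G against BMM. Without scaling, FLM_G against BMM gave -0.07 (adjusted p = 0.199), in a table whose median gene lay at -0.34. Nfkbia in FLM_G against FLM_M was 0.05 (SE 0.05, 95% interval -0.06 to 0.16, limma adjusted p = 0.411), and without scaling it was called lower (-0.43, adjusted p = 2.05e-05, median gene -0.39). The ratio of Nfkbia to Rela within a library, which no scaling changes, was 2.39, 2.35 and 2.17 in FLM_G, 1.75, 2.04 and 2.05 in FLM_M and 1.56, 1.58 and 1.58 in BMM. The 3 cultures did not overlap in this ratio.

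Nfkbie (ENSMUSG00000023947, chromosome 17, 45555703 to 45563169), the gene of IkB-epsilon, was more than 2.2-fold higher in each fetal culture than in BMM. It stood at 9.44, 8.90 and 8.43 FPKM in FLM_G, at 8.43, 8.75 and 9.74 in FLM_M and at 3.51, 4.37 and 3.93 in BMM. All fetal libraries lay above all BMM libraries. The log2 change was 1.02 (SE 0.08, limma adjusted p = 1.33e-05) in FLM_M against BMM and 1.01 (SE 0.08, adjusted p = 5.81e-06) in FLM_G against BMM. Between FLM_G and FLM_M it was -0.01 (95% interval -0.19 to 0.18, adjusted p = 0.943), though without scaling it was called lower in FLM_G (-0.44, adjusted p = 0.00106).

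Nfkbiz (ENSMUSG00000035356, chromosome 16, 55811375 to 55838899) codes for IkB-zeta, a nuclear IkB protein that works with NF-kB at a subset of target genes and can activate them. It stood at 2.51, 2.06 and 2.18 FPKM in FLM_G, at 5.28, 5.23 and 5.40 in FLM_M and at 1.72, 1.85 and 1.97 in BMM. FLM_M stood apart from both other cultures. Nfkbiz was 2.87-fold higher in FLM_M than in BMM (log2 change 1.15, SE 0.07, limma adjusted p = 1.31e-06) and lower in FLM_G than in FLM_M by -0.96 (SE 0.07, adjusted p = 1.55e-06). FLM_G lay above BMM by 0.19 (SE 0.07, adjusted p = 0.0293), a call that was lost without BMM replicate 1 (0.108), BMM replicate 2 (0.0790) or FLM_G replicate 1 (0.0636) and that had the other sign without scaling (-0.09, adjusted p = 0.232).

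Bcl3 (ENSMUSG00000053175, chromosome 7, 19808462 to 19822770), a nuclear IkB protein that binds p50 and p52 dimers, was lowest in FLM_G. It stood at 4.46, 5.07 and 5.37 FPKM in FLM_G, at 7.92, 7.39 and 7.60 in FLM_M and at 6.50, 6.61 and 7.48 in BMM. FLM_G lay below every other library, at -0.40 on the log2 scale (SE 0.08, limma adjusted p = 0.00144) against BMM and -0.54 (SE 0.08, adjusted p = 0.000206) against FLM_M. FLM_M and BMM overlapped (0.14, SE 0.08, 95% interval -0.04 to 0.31, adjusted p = 0.178). Bcl3 is overlapped on the opposite strand by 2 annotated antisense genes, Gm16174 and Gm16175, which reached at most 0.57 FPKM and 0 FPKM, and no source used here gives the strand setting of the deposited quantification.

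Tnfaip3 (ENSMUSG00000019850, chromosome 10, 19000910 to 19015657), the gene of the ubiquitin-editing enzyme A20, was the least certain of the 10. It stood at 3.53, 3.48 and 3.47 FPKM in FLM_G, at 2.40, 1.16 and 2.03 in FLM_M and at 2.22, 0.85 and 2.15 in BMM. Replicate 2 was low in both FLM_M and BMM, and all FLM_G libraries lay above all others. The log2 change was 0.76 (SE 0.23, limma adjusted p = 0.0168) in FLM_G against BMM, which held when each library was left out (adjusted p at most 0.0389) but not without scaling (0.45, adjusted p = 0.116). In FLM_G against FLM_M it was 0.67 (SE 0.23, adjusted p = 0.0266). That call was lost without FLM_M replicate 2 (0.0943), without FLM_G replicate 1, 2 or 3 (0.0559, 0.0545 and 0.0537), without the filter on low values (0.0521) and without scaling (0.32, adjusted p = 0.240). FLM_M against BMM gave 0.08 with a wide 95% interval of -0.44 to 0.61 (adjusted p = 0.804).

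**Figure D3:**
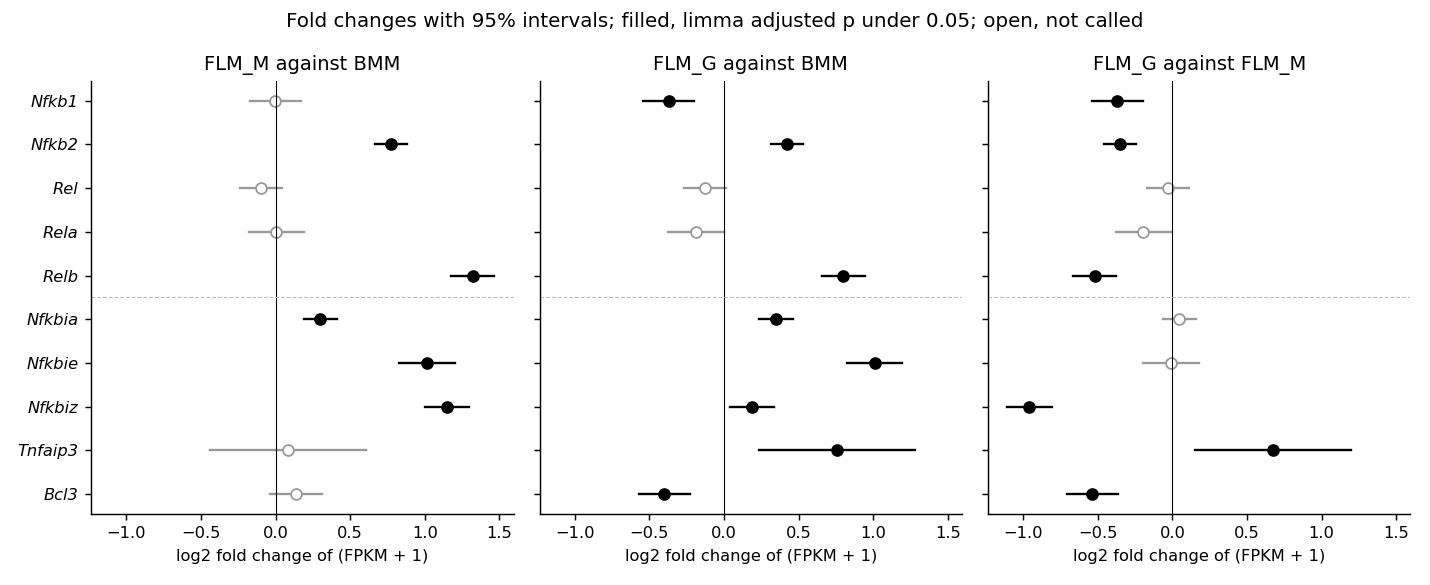
Log2 fold change of (FPKM + 1) with its 95% interval (horizontal axis) for the 10 genes in the 3 comparisons; filled points have a limma adjusted p under 0.05 and open points do not. Relb, Nfkbiz, Nfkbie and Nfkb2 lie farthest to the right in FLM_M against BMM (1.32, 1.15, 1.02 and 0.77), and Tnfaip3 has the widest intervals.

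Counted together, 5 of the 10 genes were called in FLM_M against BMM, all of them higher (Nfkb2, Relb, Nfkbia, Nfkbie and Nfkbiz), against 44.6% of all genes tested (22.7% higher and 21.9% lower). The share of members called was thus near the background. The same 5 lay above BMM without overlap and none below it, against 57.3% of all genes without overlap (28.9% above and 28.4% below). Their median log2 change was 0.22 over all 10, against 0.00 over all genes. In FLM_G against BMM 8 were called, 6 higher and 2 lower, against 68.0% of all genes (33.8% higher and 34.1% lower), with a median of 0.27 (0.00 over all genes). All 10 were without overlap there, 6 above and 4 below, against 73.2% of all genes (36.1% above and 37.1% below). In FLM_G against FLM_M 6 were called, 1 higher and 5 lower, against 70.6% of all genes (35.5% higher and 35.1% lower), with a median of -0.27 (0.00 over all genes). The same 6 were without overlap, against 72.4% of all genes (36.2% above and 36.2% below). The comparisons share libraries and are not independent of each other. Scaling moved the values of FLM_G: its factors were 0.80 to 0.82 in FLM_G, 1.13 to 1.14 in FLM_M and 1.08 to 1.09 in BMM, and the macrophage list, mostly Lyz2, summed to 26860 to 27109 scaled FPKM in FLM_G, 5833 to 6021 in FLM_M and 7835 to 8251 in BMM. Without scaling the median gene lay at -0.34 against BMM and at -0.39 against FLM_M. The calls over all genes then divided into 2081 higher and 6775 lower in place of 4044 and 4081 against BMM, and into 2218 and 7075 in place of 4246 and 4195 against FLM_M. Of the 10 members, 2 were then higher (Relb and Nfkbie) and 4 lower in FLM_G against BMM, and 0 higher and 9 lower in FLM_G against FLM_M. The 5 calls in FLM_M against BMM were all made without scaling too, with Bcl3 as a sixth (0.20, limma adjusted p = 0.0494).

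The order of the levels changed between cultures mainly through Relb, Nfkbie and Nfkbiz. Nfkbia, Rela and Nfkb2 were the 3 highest in all cultures and did not overlap each other in any. In FLM_G, Nfkbie (8.92 ± 0.51 FPKM) came next, then Nfkb1 (6.39 ± 0.18), and Relb, Bcl3 and Rel followed with overlapping neighbours. In FLM_M, Nfkbie (8.98 ± 0.68), Nfkb1 (8.55 ± 0.59), Relb (8.16 ± 0.11) and Bcl3 (7.64 ± 0.26) lay close together, each overlapping the next except Relb and Bcl3. In BMM, Nfkbie (3.94 ± 0.43) and Relb (2.67 ± 0.23) came after Nfkb1, Bcl3 and Rel. Tnfaip3 was last in FLM_M and BMM, where it overlapped Nfkbiz in BMM only, and Nfkbiz was last in FLM_G.

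Among 7233 tested genes with a mean of at least 5 FPKM, the genes nearest in profile were found for the members by the Euclidean distance between centred log2 levels over the 9 libraries. Lrrc27 and Gm21188 were among the nearest to Relb, at distances of 0.34 and 0.32. Lrrc27 stood at 19.4 ± 1.0 FPKM in FLM_G, 27.0 ± 1.2 in FLM_M and 12.2 ± 0.2 in BMM. Nfkb2 lay nearest to Gdpd1 (0.21) and Cited2 (0.24), and Nfkbiz to Qpct (0.27) and Fbxw17 (0.32). Nfkbie lay nearest to Parp3 (0.29) and Vopp1 (0.31). Bcl3 lay nearest to Pik3r2 (0.11) and to Rnf31 (0.15), a subunit of the linear ubiquitin ligase that acts upstream of IKK. Nfkb1 lay nearest to Gtf2i (0.13) and Ap2m1 (0.13), Rel to Ctnnd1 (0.09) and Rab35 (0.09), and Rela to Pgm2 (0.12) and Eps15l1 (0.15). Tnfaip3 had no close neighbour, with Sirpa at 0.55 and Tlr8 at 0.57. Among the members themselves the nearest pair was Rel and Rela (0.33), followed by Nfkb1 and Rela (0.39). Small distances among genes that hardly vary are reached easily, so these values only describe the order of the libraries.

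Other genes of the pathway were read from 4 lists. Of 37 NF-kB target genes 28 were tested, and in FLM_M against BMM 24 were called higher and 2 lower, with a median log2 change of 0.74. Cxcl10, a chemokine that interferon also induces, stood at 64.7 ± 10.0 FPKM in FLM_M and 3.72 ± 0.34 in BMM. The chemokine gene Ccl4 stood at 262.1 ± 16.2 in FLM_M and 33.5 ± 0.1 in BMM, and Ccl3, of the same family, at 324.6 ± 22.0 in FLM_M and 55.7 ± 2.2 in BMM. Ccrl2, an atypical chemoattractant receptor, stood at 5.26 ± 0.30 in FLM_M and 0.69 ± 0.06 in BMM. The genes called lower were Ier3 and Tnfaip2, and the call of Tnfaip2 was lost without scaling (limma adjusted p = 0.0629). The count stands beside 22.7% of all genes called higher in this comparison, and the list was not tested as a set. Among those called higher, Lcn2 passed the filter only through FLM_M (1.41 ± 0.16 FPKM, against 0.09 ± 0.03 in BMM). Il1b and Csf1 stood below 1 FPKM in both FLM_M and BMM and passed it only through FLM_G. Bcl2a1a, Bcl2a1b and Bcl2a1d, close copies whose reads may have been divided between them, were counted singly.

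In FLM_G against BMM the target genes divided, with 15 called higher, 9 lower and a median of 0.21 (13 and 13 with a median of -0.14 without scaling), beside 33.8% of all genes higher and 34.1% lower. Il1a, an interleukin-1 gene, stood at 97.8 ± 2.0 FPKM in FLM_G and 0.08 ± 0.10 in BMM. It passed the filter only through FLM_G, as did Il1b and Csf1, which were also called higher. The survival genes Bcl2a1a and Bcl2a1d, close copies whose reads may have been divided between them, stood at 216.5 ± 8.0 and 225.2 ± 9.8 in FLM_G and at 6.11 ± 0.50 and 9.49 ± 0.41 in BMM. Marcksl1 stood at 0.95 ± 0.06 in FLM_G and 57.8 ± 3.3 in BMM. In FLM_G against FLM_M 11 were higher and 15 lower, with a median of -0.52 (9 and 18 with a median of -0.97 without scaling), beside 35.5% of all genes higher and 35.1% lower. Among the lower were Cxcl10 at 0.03 ± 0.03 FPKM in FLM_G and 64.7 ± 10.0 in FLM_M, and Ccl5 at 0.39 ± 0.21 in FLM_G and 28.2 ± 2.4 in FLM_M. The lower also held Lcn2, which passed the filter only through FLM_M, and the higher again held Il1a, Il1b and Csf1. The targets went both ways in FLM_G, while Relb and Nfkbie were higher there than in BMM under all 3 scalings.

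Of the 26 genes of the IKK complex, its kinases and adaptors, all tested, 2 were higher and 5 lower in FLM_M against BMM (median log2 change 0.02), 7 higher and 6 lower in FLM_G against BMM (0.02) and 10 higher and 7 lower in FLM_G against FLM_M (0.15). Without scaling the counts were 4 higher and 14 lower in FLM_G against BMM, and 4 higher and 13 lower in FLM_G against FLM_M. The 7, 13 and 17 called of 26 stand beside 44.6%, 68.0% and 70.6% of all genes called in these comparisons, and the list was not tested as a set. Map3k8, whose kinase TPL2 is held by the p105 product of Nfkb1, stood at 7.61, 12.5 and 12.4 FPKM in FLM_G, at 2.73, 3.40 and 3.12 in FLM_M and at 1.95, 2.06 and 2.09 in BMM. It was higher in FLM_G than in BMM (log2 change 1.93, SE 0.16, limma adjusted p = 7.53e-06), while Nfkb1 was lower. Myd88, the adaptor of most Toll-like receptors, was higher in FLM_G at 40.6 ± 1.5 FPKM, against 24.1 ± 0.7 in FLM_M and 23.5 ± 0.8 in BMM. Tab2, an adaptor of the kinase TAK1, was lower at 14.3 ± 1.0 in FLM_G, against 29.7 ± 3.2 in FLM_M and 29.2 ± 0.2 in BMM. In FLM_M against BMM, Chuk, the gene of IKK-alpha, was lower with a change of -0.34 (SE 0.08, limma adjusted p = 0.00695) and Rnf31 was higher by 0.22 (SE 0.07, adjusted p = 0.0417). Tradd was lower there by -0.27 (SE 0.06, limma adjusted p = 0.00466). Irak2, a kinase of Toll-like and interleukin-1 receptor signalling, was higher in FLM_G than in BMM by 1.17 (SE 0.31, limma adjusted p = 0.00951). Its libraries spread widely, at 6.51, 5.56 and 12.3 FPKM in FLM_M and 3.44, 7.86 and 7.38 in BMM.

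The genes that control non-canonical processing were looked at after their values were seen, beside Relb and Nfkb2. Map3k14 codes for NIK, the kinase that starts p100 processing. It stood at 1.22 ± 0.07 FPKM in FLM_G, 3.07 ± 0.20 in FLM_M and 3.26 ± 0.16 in BMM, lower in FLM_G than in BMM by -0.94 (SE 0.06, limma adjusted p = 9.42e-07) and not called in FLM_M against BMM (-0.07, adjusted p = 0.403). Traf3, part of the complex that degrades NIK, stood at 1.66, 3.98 and 5.82 in FLM_G, at 1.20, 0.84 and 0.93 in FLM_M and at 4.54, 5.23 and 2.53 in BMM. Traf3 was lower in FLM_M than in BMM by -1.32 (SE 0.33, limma adjusted p = 0.0112), with a wide spread in FLM_G and BMM. Of other genes of that complex, Traf2 was higher in FLM_M than in BMM by 0.26 (limma adjusted p = 0.00667). Birc3, which is also on the list of target genes, was higher by 0.35 (adjusted p = 0.00096), and Birc2 was not called (-0.04). Whether these RNA levels bear on Relb and Nfkb2 was not tested.

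Of 8 receptors of the TNF and interleukin-1 families 6 were tested. In FLM_M against BMM 1 was higher (Tnfrsf1a, by 0.11) and 2 lower (Cd40 and Tnfrsf11a), beside 44.6% of all genes called. Without scaling 2 were higher and 2 lower there. Cd40 stood at 0 FPKM in FLM_G, 1.38 ± 0.08 in FLM_M and 2.14 ± 0.14 in BMM. Tnfrsf11a, the gene of RANK, stood at 3.96 ± 0.32 FPKM in FLM_G, 13.4 ± 0.4 in FLM_M and 23.1 ± 1.5 in BMM. Both were highest in BMM. Ltbr stood at 44.4 ± 4.9 in FLM_G, 42.7 ± 1.9 in FLM_M and 37.5 ± 0.9 in BMM. Its FLM_M libraries lay above those of BMM without overlap, but it was not called there (limma adjusted p = 0.0889). A relation of these receptors to Relb was not tested. Tnfrsf1b, the gene of TNF receptor 2, stood at 147.3 ± 8.8 in FLM_G, 41.4 ± 3.5 in FLM_M and 44.3 ± 1.0 in BMM. In FLM_G against BMM 2 were higher and 2 lower (1 and 5 without scaling), beside 68.0% of all genes called. Of these, Ltbr was higher by 0.23 (SE 0.08, limma adjusted p = 0.0256) but lower without scaling (-0.18, adjusted p = 0.0450). In FLM_G against FLM_M 1 was higher and 3 lower (1 and 4 without scaling), beside 70.6% of all genes called.

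Among 16 other inhibitors, all tested, 6 were higher and 2 lower in FLM_M against BMM (median log2 change 0.12), 7 higher and 3 lower in FLM_G against BMM (0.13; 4 and 8 without scaling) and 5 higher and 5 lower in FLM_G against FLM_M (3 and 9 without scaling). The 8, 10 and 10 called of 16 stand beside 44.6%, 68.0% and 70.6% of all genes called. Nfkbib, the gene of IkB-beta, was higher in FLM_M, at 12.7 ± 0.8 FPKM in FLM_G, 18.3 ± 1.0 in FLM_M and 13.0 ± 0.3 in BMM, unlike Nfkbie, which was higher in both fetal cultures. Nfkbid, the gene of the nuclear inhibitor IkB-NS, was higher in FLM_G, at 30.2 ± 2.1 in FLM_G, 13.9 ± 1.7 in FLM_M and 13.3 ± 0.8 in BMM, the reverse of Nfkbiz between the fetal cultures. Tnip1, whose product works with A20, stood at 22.2 ± 1.0 in FLM_G, 20.1 ± 0.9 in FLM_M and 12.8 ± 0.8 in BMM. Zc3h12a, which codes for a nuclease that destroys inflammatory transcripts, stood at 24.5 ± 0.6 in FLM_G, 4.31 ± 0.11 in FLM_M and 5.91 ± 0.25 in BMM. N4bp1 stood at 18.4 ± 0.6 in FLM_G, 7.90 ± 0.67 in FLM_M and 7.14 ± 0.08 in BMM. Tank, a TRAF-binding regulator, was highest in FLM_M, at 5.18 ± 0.67 in FLM_G, 14.7 ± 0.6 in FLM_M and 7.40 ± 0.37 in BMM. Tnip3, a relative of Tnip1, stood at 3.42 ± 0.30 in FLM_G, 16.2 ± 0.6 in FLM_M and 14.8 ± 0.3 in BMM.

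**Figure D4:**
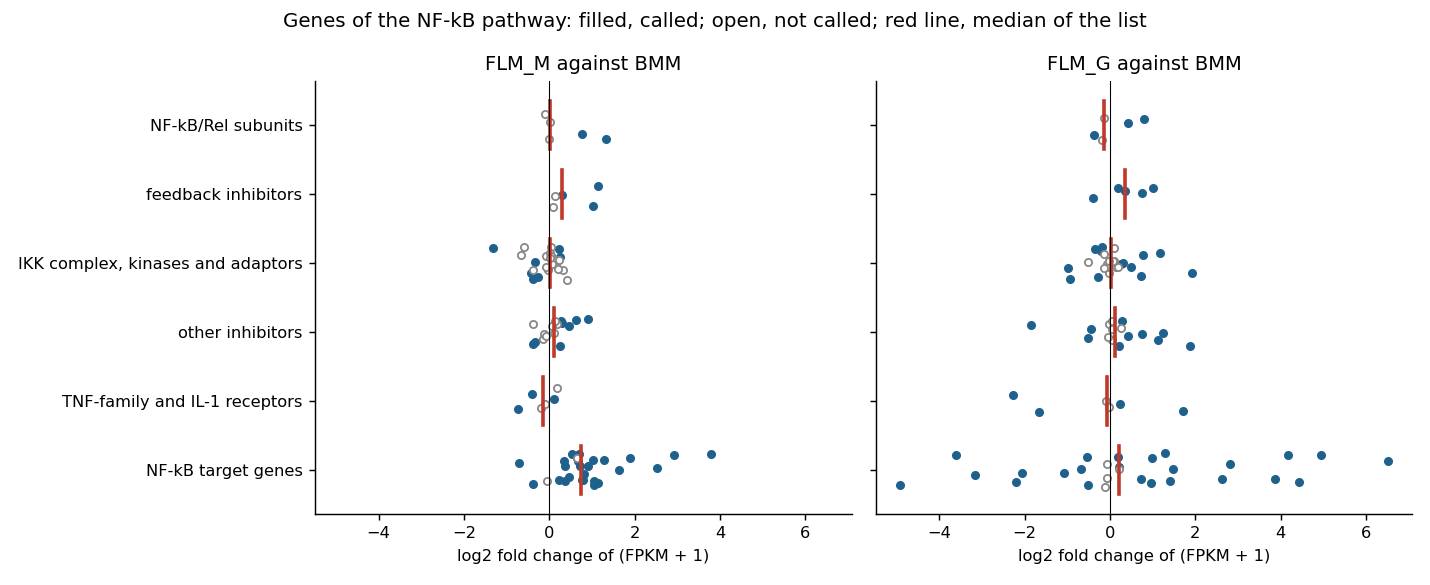
Log2 fold change of (FPKM + 1) (horizontal axis) of each tested gene in the subunit, inhibitor and 4 further pathway lists (rows), in FLM_M against BMM and in FLM_G against BMM; filled points are called, open points are not, and the red line is the median. The target genes lie mostly to the right in FLM_M (median 0.74) and on both sides in FLM_G (median 0.21).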

How the data were processed

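RNA was measured by sequencing in 9 libraries, 3 each of FLM_G, FLM_M and BMM. Per the labels' protocols the libraries came from a stranded poly(A) kit and were read for 101 cycles from 1 end on 1 lane. The submitters' processing notes name mm10 and GRCm38 as builds and, among the tools, HISAT2, StringTie and DESeq2; versions, strand setting and which tool made which table are not given in the sources used here. The authors deposited FPKM and, in a second table, whole-number counts per gene. The counts made up 0.46% to 3.59% of the reads implied by the FPKM of the 10 genes at the median length of their annotated transcripts. Of all counts, 36.1% fell on genes averaging under 0.5 FPKM. For both reasons counts entered only alternatives. Library sizes were estimated from the spacing of low FPKM values in genes with 1 transcript in GENCODE M21. At these sizes 16.8% to 24.8% of values lay within 0.02 reads of a whole number, against 4% by chance. Each size was picked as the best fit to this same spacing, so part of that excess is built in.

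FPKM were scaled by unweighted TMM factors (edgeR 4.0.16) and tested with limma 3.58.1 (trend) in R 4.3.3 on log2(FPKM + 1), with 1 mean per culture fitted to all 9 libraries, leaving 6 residual degrees of freedom, for genes with at least 1 FPKM in at least 3 libraries, with Benjamini-Hochberg adjustment at 0.05. The step was tested on simulated data. Libraries of 1 culture correlated across genes at 0.986 to 0.992 and those of different cultures at 0.785 to 0.936. Gene positions were looked up in GENCODE M21 by Ensembl ID, and promoters those of RefSeq. Besides the 10 members, the text names per pathway list and comparison up to 4 called genes, ranked by absolute change, that averaged 5 FPKM or more in the higher group, members of a count under 5, the 2 genes nearest to each member in profile (those of Nfkbia are not reported here), and markers; a few, said so, were picked after their values were seen. Members and lists were chosen with earlier results of these data known. Alternatives were RLE and no scaling, no filter and a filter of 5 FPKM, a fit to the 6 libraries compared alone, a pseudocount of 0.1, a replicate block, edgeR and DESeq2 1.42.0 on the counts, and each library left out.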

Additional observations from a re-analysis of the deposited data

How the results depend on the processing

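The 5 members called in FLM_M against BMM were called in each fit without 1 library (5 members in every fit; 4192 to 5509 genes over the whole table). In FLM_G against BMM 7 to 9 members and 7239 to 8063 genes were called without 1 library, and in FLM_G against FLM_M 5 to 6 members and 7606 to 8242 genes. RLE scaling and a pseudocount of 0.1 changed no call of a member. With the 6 libraries compared alone, in FLM_G against BMM, Nfkbiz was no longer called (limma adjusted p = 0.0544) and Rela was (0.0481). The deposited counts, of which only 4 members passed the count filter, gave far fewer calls. edgeR called 1 member in FLM_M against BMM (1300 genes of 7490), 1 in FLM_G against BMM (2458 genes) and 1 in FLM_G against FLM_M (2855 genes). DESeq2 called 0 members and 933 genes in FLM_M against BMM, 1 and 2070 in FLM_G against BMM, and 0 and 2439 in FLM_G against FLM_M. The cause was not tested. Of all counts 36.1% fell on genes averaging under 0.5 FPKM, and whether the counts measure the same RNA as the FPKM was not tested either.

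Signs that turned concerned uncalled changes near 0 and also called changes. The called ones were those of Nfkb2 on the counts, and of Nfkbia and Nfkbiz in FLM_G against BMM without scaling. In FLM_M against BMM, Nfkb1 turned to 0.056 without scaling, 0.0074 under the filter of 5 FPKM, 0.64 with edgeR and 0.58 with DESeq2, and ranged from -0.058 to 0.063 without 1 library. Rela turned to -0.0049 with only the 6 libraries compared and ranged from -0.057 to 0.064, and Tnfaip3 ranged from -0.18 to 0.28. Nfkb2, called in the FPKM, was at -0.064 with edgeR and -0.12 with DESeq2 there, and at -0.12 and -0.11 in FLM_G against BMM. Rela in FLM_G against BMM was at 0.12 with edgeR and 0.11 with DESeq2. Without scaling, Nfkbia and Nfkbiz in FLM_G against BMM were at -0.067 and -0.092 and Nfkbia in FLM_G against FLM_M was at -0.43. In FLM_G against FLM_M, Nfkb2 was at 0.015 with DESeq2, and without 1 library Rel ranged from -0.087 to 0.012 and Nfkbie from -0.058 to 0.048.

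Deviations from the culture means correlated at -0.08 to 0.09 between libraries of the same replicate number and at -0.10 to 0.07 between those of different numbers. Between BMM and FLM_G the same-number pairs stood at 0.07, 0.09 and 0.05 and all others at -0.05 to -0.02. Same-number pairs with FLM_M had both signs. Correlations this weak cannot decide whether the numbers pair the libraries. With a replicate block 5 members and 5140 genes were called in FLM_M against BMM, 7 and 8018 in FLM_G against BMM, and 6 and 8386 in FLM_G against FLM_M. The block moved 1 member across the threshold, Nfkbiz in FLM_G against BMM (limma adjusted p = 0.0506).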

Other observations

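The deposited counts of the members, although small, did not follow the FPKM for every gene. Tnfaip3 had 6, 7 and 5 counts in FLM_G, 19, 10 and 10 in FLM_M and 1, 1 and 2 in BMM, so that FLM_M was highest, whereas its FPKM was highest in FLM_G. Nfkb1 had 12, 18 and 4 counts in FLM_G, 49, 39 and 31 in FLM_M and 15, 24 and 13 in BMM, while its FPKM was level between FLM_M and BMM. Nfkbiz had 2, 2 and 1 counts in FLM_G, 15, 8 and 10 in FLM_M and 4, 1 and 1 in BMM, in the same order of FLM_M above the others as its FPKM. These are values of single libraries, not corrected for library size, and whether they measure the same RNA as the FPKM was not tested.

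Other genes of the pathway lists also had a wide spread of FPKM between libraries of 1 culture, as Tnfaip3 did. Among them were Map3k7, Irf1, Irak1, Irak2, Ikbkg and Traf3. Map3k7, the gene of the kinase TAK1, stood at 1.88, 6.49 and 8.84 scaled FPKM in FLM_G, at 8.49, 8.43 and 2.13 in FLM_M and at 6.51, 10.1 and 6.56 in BMM. The NF-kB and interferon target Irf1 stood at 7.33, 9.10 and 3.86 in FLM_G, at 6.47, 13.7 and 8.48 in FLM_M and at 7.27, 4.81 and 4.56 in BMM. All these genes were chosen here after their values were seen. Map3k7, Irf1 and Ikbkg were called in no comparison, whereas Irak1, Irak2 and Traf3 were each called in at least 1.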
